A study of Mus musculus with 4 samples.

Results

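The genes described here are Six3, its antisense transcript Six3os1 and 7 regulators of forebrain regional identity, namely Six6, Lhx2, Emx2, Otx1, Otx2, Pax6 and Nr2f1. Six3 and Six3os1 were picked on their strong fall in Chd5-deficient neural stem/progenitor cells (NSCs), so their values below are a description without a test, and the other 7 were added for their known roles. Members were found by gene name. Of the 9 genes, 8 had a row among the 18169 rows of the expression table, and all 8 had a mean TPM (a transcript's share of its library, corrected for length) of at least 1, the minimum for testing, which 12576 rows reached. Six6, a homeodomain factor of the eye and hypothalamus closely related to Six3, was not analysed here.

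The RNA-seq samples were primary NSC cultures from C57BL/6 mice, 2 of +/+ and 2 of Chd5-/- newborns, in which the chromatin remodeler gene Chd5 is disrupted in the whole animal. Each culture came from the periventricular brain region of an individual newborn and was kept undifferentiated in serum-free medium with epidermal growth factor and fibroblast growth factor 2. The growth protocol gives postnatal day 1 for every culture, whereas the separate age entries read day 1 and day 2 for +/+, and day 3 and day 4 for Chd5-/- cultures. By the age entries, genotype and age cannot be told apart.

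Regional identity in the forebrain is set by transcription factors that are switched on in overlapping domains of the early neuroepithelium and are partly retained in cultured NSCs. Six3 acts at the anterior end of the neural plate, where it is needed for forebrain and eye formation and represses Wnt genes. Otx factors cover the forebrain and midbrain, whereas Emx2, Lhx2, Pax6 and Nr2f1 pattern the cortical neuroepithelium.

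Chd5 itself was low, with 0.39 and 0.37 TPM in +/+ and 0.06 and 0.04 TPM in Chd5-/- NSCs, and the genotypes did not overlap. Because TPM holds no read number, the depth is unknown and precision rests on 2 samples per genotype. Ranks of TPM correlated at 0.974 between the +/+ samples and at 0.904 between the Chd5-/- samples (Spearman's rho over the rows of the table). Across genotypes it was 0.904 to 0.925, so the Chd5-/- samples were no closer to each other than to the +/+ samples. Differences between genotypes are given as Chd5-/- minus +/+ in mean log2(TPM + 1), a scale that understates the change of low genes. Their median over all 12576 rows was 0.34 in the values as deposited and 0.0051 after median-of-ratios scaling, so a row at 0.34 is at the centre of the table. Of these rows, 7 (0.0557%) passed an adjusted p-value of 0.05 (limma with Benjamini-Hochberg adjustment). Without adjustment, 2748 rows (21.9%) passed 0.05 with higher and 285 (2.27%) with lower values in Chd5-/- NSCs as deposited. That balance depended on the scaling, with 1509 higher and 1311 lower rows after median-of-ratios scaling, 1103 and 1024 after quantile normalization, and 581 and 732 when trends with GC content and transcript length were removed.

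Six3 lies on chr17:85613608-85629302 of GRCm38, on the plus strand. Six3os1, a noncoding transcript, lies on the minus strand at chr17:85600651-85618398, and the RefSeq start sites of the 2 genes point away from each other across 2438 bases. The 250 bases before each start are shown because the strongest differences among the members came from these 2 transcripts, with the homeodomain core TAAT (ATTA on the other strand) in capitals. Each sequence is from RefSeq on GRCm38.p6 and is written along its own gene's strand, for Six3 chr17:85620584-85620833 on the plus strand and for Six3os1 chr17:85618397-85618646 on the minus strand.
Six3: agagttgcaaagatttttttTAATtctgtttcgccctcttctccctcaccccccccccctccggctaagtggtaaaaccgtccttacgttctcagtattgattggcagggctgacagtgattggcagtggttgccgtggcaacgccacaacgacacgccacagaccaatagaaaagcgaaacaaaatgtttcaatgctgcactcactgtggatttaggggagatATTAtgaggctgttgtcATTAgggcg
Six3os1: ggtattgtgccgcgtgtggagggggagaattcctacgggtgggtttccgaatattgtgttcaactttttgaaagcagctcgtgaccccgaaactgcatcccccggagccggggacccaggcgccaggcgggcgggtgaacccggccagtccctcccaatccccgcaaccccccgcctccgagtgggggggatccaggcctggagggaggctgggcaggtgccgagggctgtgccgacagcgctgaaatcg
The Six3 window had a GC content of 48.8%, 10 CpG dinucleotides and 3 TAAT cores. The Six3os1 window was richer in GC, at 66.0%, with 19 CpG and 0 TAAT. Over 32851 RefSeq windows of the same length, the median GC content was 52.4% and the median CpG number 6, and 54.9% held TAAT on either strand. Neither window held TAATCC, the core bound by Otx-type homeodomains and itself a TAAT, which 6.25% of windows held, nor the Six3-type letters TGATAC, which 4.64% held. In the Six3 window 44 bases, and in the Six3os1 window 2 bases, lay in an annotated exon, and 0 bases in an annotated UTR.

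Six3 had 38.13 and 37.64 TPM in +/+ and only 0.54 and 0.70 TPM in Chd5-/- NSCs. The genotypes stood far apart and the samples within each were close. The mean was 37.9 ± 0.346 TPM in +/+ and 0.62 ± 0.113 TPM in Chd5-/- NSCs (SD, n = 2 each), 61.1-fold lower in Chd5-/- NSCs, with a difference of -4.59 on the log2 scale. Six3 moved from the 79.7 and 80.6 percentiles of TPM among all rows of the +/+ samples to the 25.3 and 28.3 percentiles of the Chd5-/- samples.

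Six3os1 was at 98.63 and 90.13 TPM in +/+ and at 0.61 and 1.61 TPM in Chd5-/- NSCs, again without overlap. Its means were 94.4 ± 6.01 and 1.11 ± 0.707 TPM (SD, n = 2 each), 85.0-fold apart, and its log2 difference was -5.54. By size of fall, Six3os1 and Six3 ranked 2 and 3 among the 12576 rows, which is how they came to be picked. The antisense transcript had more TPM than Six3 in every sample, with a ratio of Six3os1 to Six3 of 2.59 and 2.39 in +/+ and of 1.13 and 2.30 in Chd5-/- NSCs. Where values are this low, in the Chd5-/- samples, the ratio rests on less than 2 TPM and its precision is unknown.

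The 2 genes overlap on opposite strands. In the GENCODE annotation they shared 106 exonic bases, chr17:85613608-85613713, of 5446 exonic bases of Six3 and 11884 of Six3os1. All 106 lay in 1 of the 3 annotated Six3 transcripts. Whether reads were counted by strand is not given in the sources used here, so reads from the shared bases could be credited to either gene. Summed over both genes, TPM was 136.76 and 127.77 in +/+ and 1.15 and 2.31 in Chd5-/- NSCs, a log2 difference of -5.64.

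**Figure D1:**
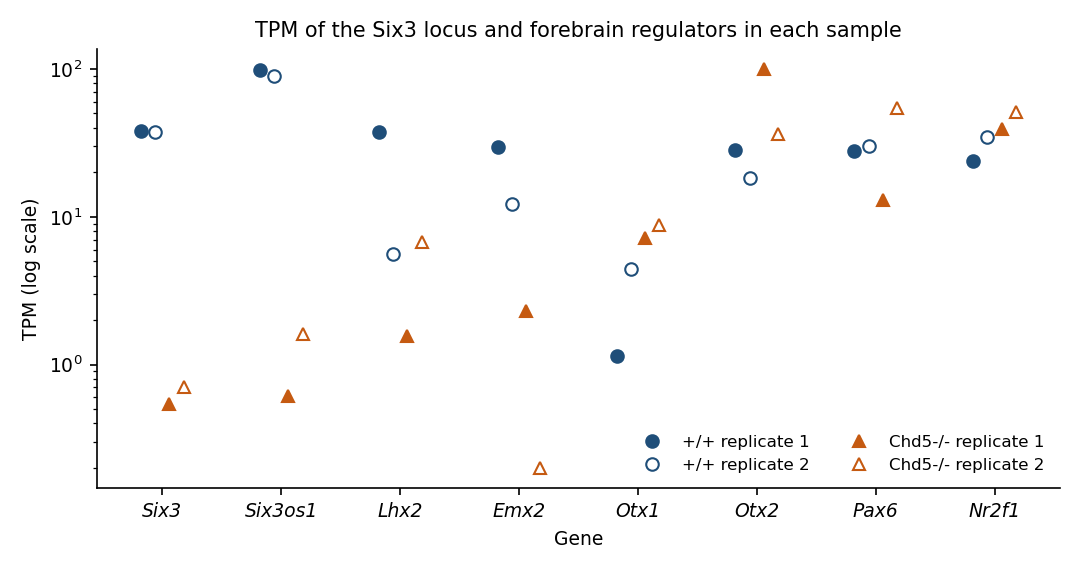
TPM of the 8 member genes with a row, on a log axis, in each of the 4 NSC samples (circles, +/+; triangles, Chd5-/-; filled, replicate 1; open, replicate 2). The 2 genotypes are far apart for Six3 and Six3os1, lie apart with wide spread for Emx2, and overlap for Lhx2 and Pax6.

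Other genes near Six3 were compared to see whether the low values extended along the chromosome. In the 1 Mb on either side, 38 genes were annotated and 15 had a row, 13 of them other than Six3 and Six3os1. Of these 13, 4 had both Chd5-/- values above both +/+ values and 0 had them below, beside 41.1% of all 18169 rows higher and 10.6% lower by the same criterion. The 9 that were tested differed by -0.25 (Lrpprc) to 0.70 (1110020A21Rik), with a median of 0.27, close to the median of all rows, and 0 passed the threshold (limma), adjusted or not.

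Six2, the adjacent Six3 family gene, was low throughout, at 0.23 and 0.23 TPM in +/+ and 0.15 and 0.33 TPM in Chd5-/- NSCs. On the same side, Srbd1, which encodes an S1 RNA-binding domain protein, was at 26.08 and 21.53 TPM in +/+ and 20.2 and 28.09 TPM in Chd5-/- NSCs, and its genotypes overlapped. Prkce, a protein kinase C gene, differed by -0.09. On the other side, Camkmt, a calmodulin methyltransferase gene, was at 8.92 and 8.81 TPM in +/+ and 14.98 and 8.69 TPM in Chd5-/- NSCs, so that 1 Chd5-/- sample was above and the other just below the +/+ samples. Plekhh2 (0.64), 1110020A21Rik (0.70) and Ppm1b (0.37), which encodes a protein phosphatase, did not overlap between genotypes, with higher values in Chd5-/- NSCs. Prepl (0.27), Dync2li1 (0.22) and Lrpprc (-0.25) overlapped. The sterol transporter genes Abcg5 and Abcg8 and the amino acid transporter gene Slc3a1 stayed under 1 TPM in every sample.

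**Figure D2:**
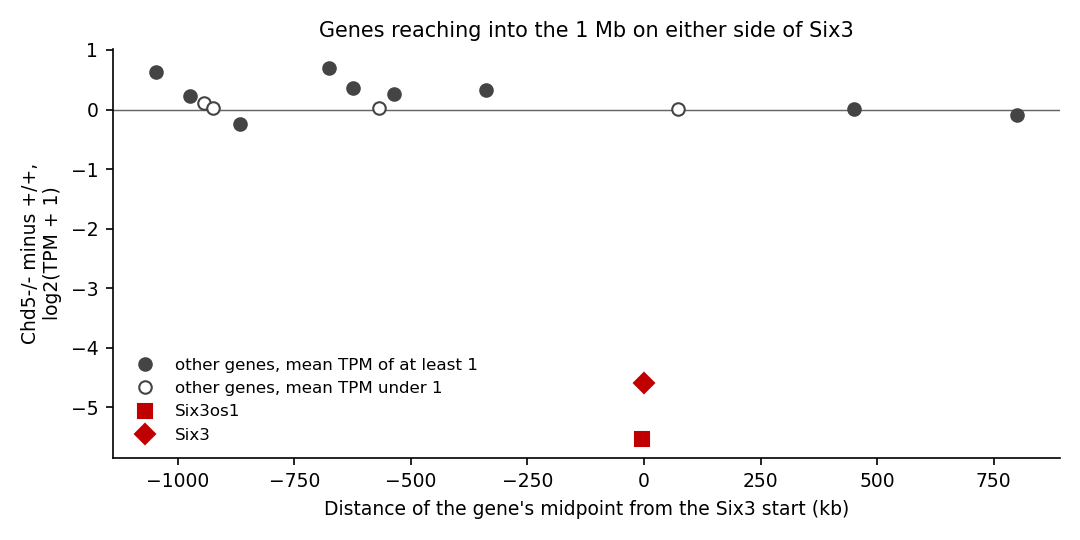
Difference between genotypes in log2(TPM + 1), Chd5-/- minus +/+, against the distance of each gene's midpoint from the Six3 start in kb, for the 15 genes with a row that reach into the 1 Mb on either side. Six3 and Six3os1 lie at -4.59 and -5.54, whereas the other tested genes lie between -0.25 and 0.70.

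Of the 6 tested members that were not picked on their fall, 0 passed the adjusted threshold. At an unadjusted p-value under 0.05, 1 was lower (Emx2) and 2 were higher (Otx1 and Otx2) in the values as deposited. Of all tested rows, 2.27% were lower and 21.9% higher at that level. Neither Otx gene passed 0.05 after median-of-ratios scaling (unadjusted p = 0.111 for both, limma), quantile normalization (0.262 and 0.101) or removal of GC and length trends (0.268 and 0.0824), and Lhx2 passed it under the last of these (0.0334). Without overlap between the genotypes, 1 was lower (Emx2) and 3 were higher (Otx1, Otx2 and Nr2f1), beside 10.6% and 41.1% of all rows, and Lhx2 and Pax6 overlapped. With 2 samples against 2, an exact permutation test of a single gene cannot go below 0.333, so the tests rest on limma's spread estimate, which is shared across rows.

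Emx2, a homeodomain factor that patterns the dorsal telencephalon and is made by adult NSCs, lies on chr19:59458372-59465357 (plus strand). Its values were 29.59 and 12.11 TPM in +/+ and 2.30 and 0.20 TPM in Chd5-/- NSCs. Both Chd5-/- samples were below both +/+ samples, but the samples of 1 genotype also differed, 11.5-fold between the Chd5-/- cultures. The log2 difference was -3.33 ± 0.65 (SE, 95% interval -4.99 to -1.67), the 6th largest fall in the table. The unadjusted p-value of limma was 0.00332 and the adjusted one 0.120, so the call was missed over the whole table. It was reached without Chd5-/- replicate 1 (adjusted p = 0.0284) and without Chd5-/- replicate 2 (adjusted p = 0.0482), settings in which the lone sample is assumed to vary like the +/+ samples and in which 1247 and 1086 rows were called in all. Without +/+ replicate 1 the adjusted p was 0.373, and without +/+ replicate 2 it was 0.759. Emx2 was also among the 5 rows nearest to Six3 in pattern, as given below, which a large fall in these same samples favours.

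Lhx2, a LIM homeodomain factor that sets cortical identity, lies on chr2:38339281-38369733 (plus strand). It had 37.37 and 5.60 TPM in +/+ and 1.55 and 6.73 TPM in Chd5-/- NSCs. The value of +/+ replicate 2 lay between those of the Chd5-/- samples, and +/+ replicate 1 alone stood high, 6.67-fold above its counterpart. That gap was wider than in 99.7% of tested rows. The log2 difference was -1.84 ± 0.97 (SE, 95% interval -4.29 to 0.61), with an adjusted p of 0.305 (limma). Leaving out +/+ replicate 1 gave -0.57, and leaving out +/+ replicate 2 gave -3.11.

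Otx2, the homeodomain factor required for forebrain and midbrain formation, lies on chr14:48657677-48673819, on the minus strand. Its TPM was 28.29 and 18.26 in +/+ and 99.68 and 36.58 in Chd5-/- NSCs, higher in both Chd5-/- samples without overlap. The log2 difference was 1.37 ± 0.52 (SE, 95% interval 0.04 to 2.70). Its adjusted p was 0.197 (limma, unadjusted 0.0450) with all samples. Leaving out Chd5-/- replicate 2 gave a difference of 2.08, and leaving out Chd5-/- replicate 1 gave 0.66. Otx1, the related factor that acts mainly in the cortex, lies on chr11:21994764-22002897, on the minus strand. It was at 1.14 and 4.45 TPM in +/+ and at 7.14 and 8.78 TPM in Chd5-/- NSCs. The genotypes did not overlap, but the +/+ samples differed by more than 98.0% of tested rows. The log2 difference was 1.39 ± 0.51 (SE, 95% interval 0.08 to 2.69), with an adjusted p of 0.190 (limma, unadjusted 0.0411), and the difference was 0.71 without +/+ replicate 1. Both Otx genes missed the adjusted threshold, and 21.9% of the whole table was higher at the same unadjusted level.

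Pax6, the paired-box factor of the dorsal telencephalon and eye, lies on chr2:105668900-105697364 (plus strand). It had 27.69 and 30.04 TPM in +/+ and 12.98 and 54.41 TPM in Chd5-/- NSCs. The 2 Chd5-/- samples lay on opposite sides of the +/+ samples, 4.19-fold apart. The log2 difference was -0.10 ± 0.65 (SE, 95% interval -1.76 to 1.56, adjusted p = 0.939, limma), and it turned to 0.89 without Chd5-/- replicate 1.

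Nr2f1, the nuclear receptor COUP-TFI that patterns cortical areas, lies on chr13:78188973-78199757, on the minus strand. Its TPM was 23.90 and 34.59 in +/+ and 39.14 and 50.98 in Chd5-/- NSCs, without overlap. The log2 difference of 0.62 ± 0.29 (SE, 95% interval -0.12 to 1.36, adjusted p = 0.263, limma) stood 0.28 above the median of all rows and turned to -0.19 when trends with GC content and transcript length were removed.

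**Figure D3:**
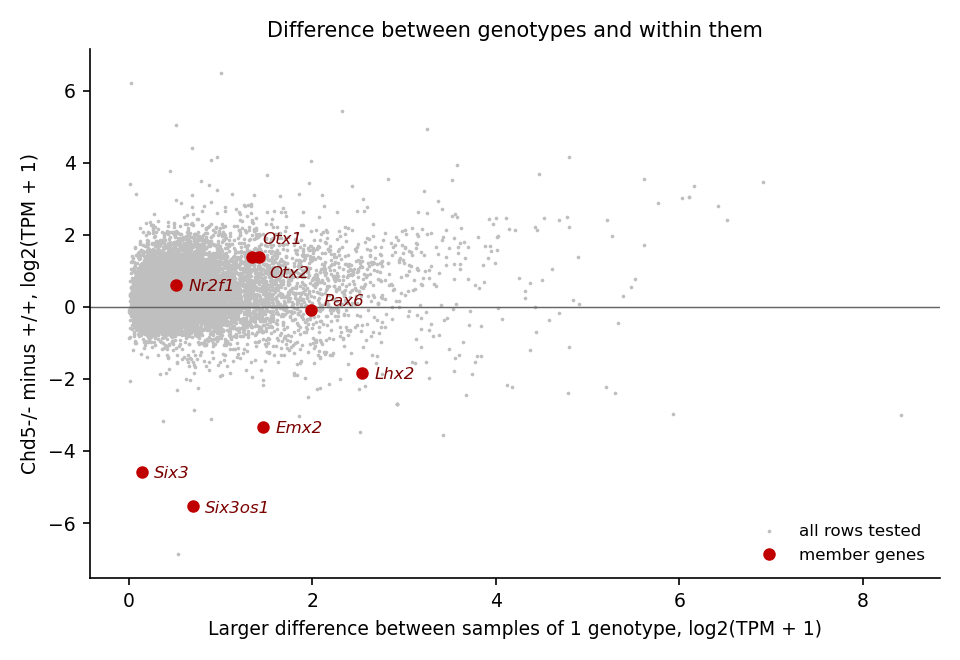
Difference between genotypes in log2(TPM + 1), Chd5-/- minus +/+, against the larger of the 2 differences between samples of the same genotype, for all 12576 tested rows (grey) and the 8 tested members (red). Six3 and Six3os1 lie far below 0 with a difference between genotypes many times that within them, whereas Lhx2, Pax6 and Otx2 varied by more within a genotype than between genotypes.

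The members differed in which culture was high or low. The high Lhx2 and Emx2 values of +/+ replicate 1 went with its lowest Otx1 value, and the Pax6 maximum of Chd5-/- replicate 2 went with the minimum of Emx2. The gap between the +/+ samples was at the 4.05 percentile of tested rows for Six3, while the Lhx2 and Emx2 gaps were at the 99.7 and 97.4 percentiles. In bulk cultures, fewer cells that make a transcript and less transcript per cell cannot be told apart.

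**Figure D4:**
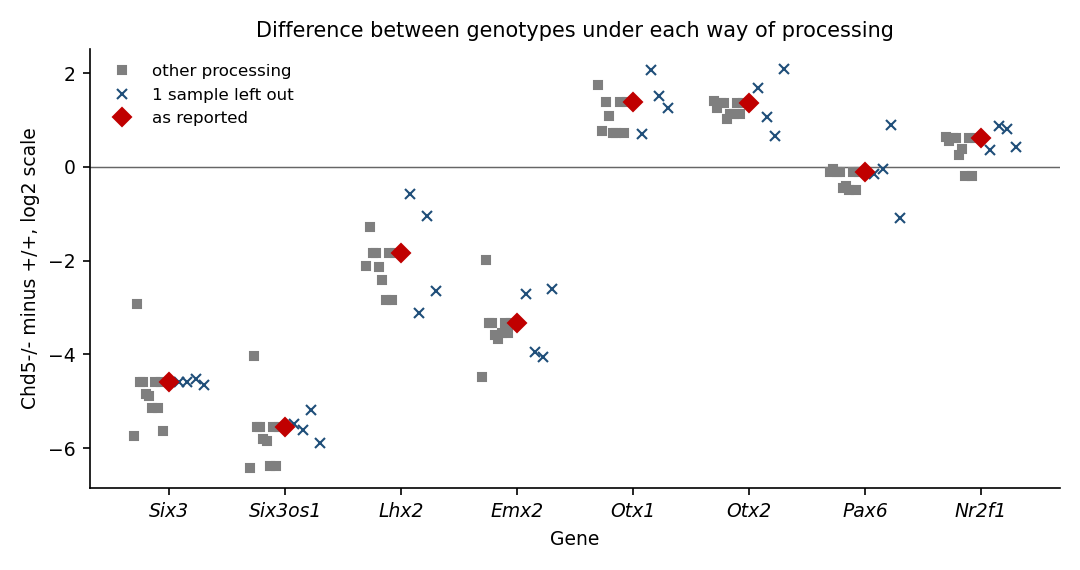
Difference between genotypes on the log2 scale for the 8 members as reported (red diamonds), under other processing (grey squares) and with 1 sample left out (blue crosses). Six3, Six3os1, Lhx2 and Emx2 stay below 0 and Otx1 and Otx2 above 0 throughout, whereas Pax6 and Nr2f1 cross 0.

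The tested rows nearest to Six3 were sought by the Euclidean distance between the 4 values of log2(TPM + 1) after centring each row. Over these 4 samples they were Six3os1 (1.03), Fam84a (1.49), Nudt7 (1.60), AK193034 (1.89) and Emx2 (1.89). Fam84a was at 188.71 and 231.31 TPM in +/+ and 25.66 and 19.6 TPM in Chd5-/- NSCs. Nudt7, a peroxisomal coenzyme A hydrolase gene, was at 23.2 and 44.22 TPM in +/+ and 2.7 and 2.91 TPM in Chd5-/- NSCs. AK193034 was at 51.33 and 79.46 TPM in +/+ and 10.5 and 6.01 TPM in Chd5-/- NSCs. Every one of the 5 was lower in both Chd5-/- samples, which the choice of nearest rows implies.

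Among 16 further Six3 family genes and partners (the rest of its family, the Eya coactivators, Dach corepressors and Groucho family genes), all had a row and 13 were tested. The median difference was 0.58 beside 0.34 over all rows, and it became 0.33 under median-of-ratios scaling, 0.05 with quantile-normalized values, 0.0010 with GC and length trends removed and 0.38 without Chd5-/- replicate 1. At an unadjusted p-value under 0.05, 3 were higher and 1 lower as deposited, beside 21.9% and 2.27% of all tested rows. The adjusted threshold was passed by 0. Eya1, a phosphatase that binds proteins of this family, was at 3.86 and 3.43 TPM in +/+ and 9.08 and 35.03 TPM in Chd5-/- NSCs (log2 difference 2.04, adjusted p = 0.155, limma). Aes, a short member of the Groucho family, was at 55.37 and 58.90 TPM in +/+ and 132.59 and 134.26 TPM in Chd5-/- NSCs, a difference of 1.21 (adjusted p = 0.120). Dach1, a corepressor partner, went the other way, with 9.39 and 5.83 TPM in +/+ and 2.03 and 0.85 TPM in Chd5-/- NSCs (-1.83, adjusted p = 0.121). No gene of this group had the near loss seen for Six3.

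Other dorsal and rostral forebrain regulators were mostly low. Of 26 genes, 18 had a row and 5 were tested, with 0 past either threshold. Without overlap, 5 of the 18 rows were lower and 2 higher, beside 10.6% and 41.1% of all rows. The median of the 5 tested was 0.12 as deposited and -0.25 after median-of-ratios scaling, and leaving out a sample moved it between -0.15 (without +/+ replicate 2) and 0.28 (without Chd5-/- replicate 2). It was -0.06 without Chd5-/- replicate 1 and 0.25 without +/+ replicate 1. Nr2e1, the orphan receptor that maintains adult NSCs, was at 39.51 and 28.41 TPM in +/+ and 6.96 and 22.84 TPM in Chd5-/- NSCs (log2 difference -1.33, adjusted p = 0.226, limma). Dmrta1, a doublesex-related factor, was at 1.17 and 1.06 TPM in +/+ and 1.56 and 2.2 TPM in Chd5-/- NSCs. A further 2 genes were chosen after their values were seen. Fezf1, a zinc finger factor of the anterior forebrain, was at 0.93 and 3.01 TPM in +/+ and was listed at 0 in both Chd5-/- samples. Dmrta2, another doublesex-related factor, was at 0.55 and 1.48 TPM in +/+ and 0.18 and 0.04 TPM in Chd5-/- NSCs. Both stayed at or under 3.01 TPM in every culture, and their genotypes did not overlap.

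Of 13 ventral forebrain regulators, 7 had a row and 3 were tested, with a median difference of 0.41. Ebf1, an early B cell factor gene used in striatal neurons, was at 0.82 and 0.10 TPM in +/+ and 1.98 and 1.15 TPM in Chd5-/- NSCs. Of 10 ligands of forebrain signalling centres, 8 had a row and 2 were tested (median 0.37). Wnt7b was at 20.18 and 19.75 TPM in +/+ and 34.64 and 49.18 TPM in Chd5-/- NSCs (1.01, adjusted p = 0.132, limma). Of 29 midbrain, hindbrain and spinal cord regulators, 16 had a row and 9 were tested. Their median difference of 1.04 became 0.74 under median-of-ratios scaling and 0.10 after removal of GC and length trends. It was 0.37 without +/+ replicate 1 and 0.59 without +/+ replicate 2. As deposited, 2 were higher and 0 lower at an unadjusted p-value under 0.05, beside 21.9% and 2.27% of all tested rows. Without overlap, 5 of the 16 rows were higher and 2 lower, beside 41.1% and 10.6% of all rows. The genes named next had the largest differences among tested rows without overlap, so they do not stand for the list. Irx2, an Iroquois factor, was at 3.02 and 0.74 TPM in +/+ and 19.00 and 12.51 TPM in Chd5-/- NSCs (2.64, adjusted p = 0.120, limma). Pax3, a paired-box factor of the dorsal neural tube, was at 0.07 and 0 TPM in +/+ and 2.29 and 11.24 TPM in Chd5-/- NSCs (2.62, adjusted p = 0.129). Irx1 was at 1.99 and 0.05 TPM in +/+ and 2.16 and 5.44 TPM in Chd5-/- NSCs. None of these lists had a row past the adjusted threshold.

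**Figure D5:**
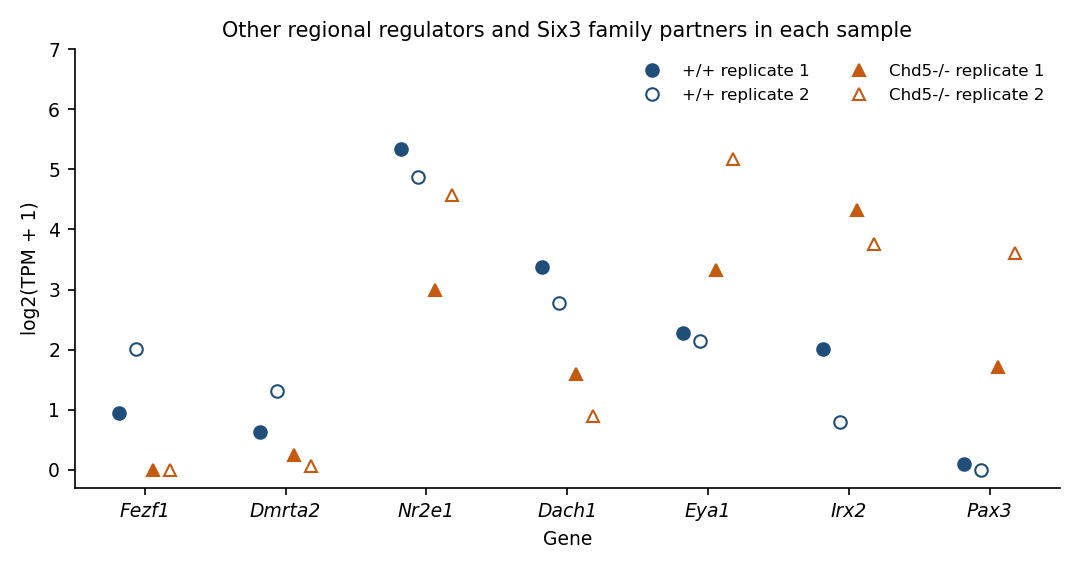
Level in log2(TPM + 1) of 7 regional regulators and Six3 family partners in each of the 4 NSC samples (circles, +/+; triangles, Chd5-/-; filled, replicate 1; open, replicate 2). Fezf1 and Dmrta2, chosen after their values were seen, were low and lay higher in +/+. Irx2 and Pax3, named for the size of their difference, lay higher in Chd5-/- NSCs.

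Cell type markers were read beside these values. The 8 NSC markers were all present, and their summed level was 9779 and 8100 TPM in +/+ and 3938 and 6810 TPM in Chd5-/- NSCs. Most of this sum was Fabp7, Slc1a3 and Vim, so it says little of the other markers. Nes differed by -0.05, and Nes, Hes5 and Prom1 overlapped between genotypes. The rule for named genes gave Slc1a3, Fabp7 (log2 difference -0.89) and Egfr (0.70). Slc1a3, a glutamate transporter, was at 1871.05 and 1620.40 TPM in +/+ and 442.25 and 1005.58 TPM in Chd5-/- NSCs (-1.38). Over this list of 8 markers, 1 was lower and 0 higher at an unadjusted p-value under 0.05, beside 2.27% and 21.9% of all tested rows. Without overlap, 4 were lower and 1 higher, beside 10.6% and 41.1% of all rows. The 6 neuronal markers summed to between 506.85 and 517.39 TPM in +/+ and between 369.35 and 797.15 TPM in Chd5-/- NSCs. Nearly all of this was Map2. Without overlap, 3 of the 6 were higher in Chd5-/- NSCs and 0 lower, beside 41.1% and 10.6% of all rows. Among the tested ones this was Syt1 alone. The 4 astrocyte markers summed to 78.61 and 237.73 TPM in +/+ and 110.81 and 313.5 TPM in Chd5-/- NSCs. The 6 oligodendrocyte lineage markers summed to 415.32 and 468.94 TPM in +/+ and 314.11 and 758.2 TPM in Chd5-/- NSCs, with Cspg4 (higher in Chd5-/- NSCs) the only row without overlap. Both sets overlapped between genotypes in their sums.

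Of 5 microglial markers, 1 had a row, Aif1, at 0.17 TPM in Chd5-/- replicate 1 and listed at 0 elsewhere. The 6 vascular and mesenchymal markers with a row summed to at most 0.39 TPM in +/+ and to 5.41 and 0.23 TPM in Chd5-/- NSCs, mostly Dcn in replicate 1 (4.17 TPM). Of 6 retina and eye field markers, 4 had a row, and 3 of these, all but Mitf, stayed under 1 TPM in every sample. The 4 ependymal and choroid plexus markers with a row summed to 2.03 and 2.18 TPM in +/+ and 7.58 and 5.92 TPM in Chd5-/- NSCs, led by the cilia factor Foxj1 (1.37, adjusted p = 0.122, limma). The part of these markers in the member values was not tested.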

How the data were processed

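RNA-seq of primary NSCs was taken from 4 samples, 2 +/+ and 2 Chd5-/-. The authors deposited TPM values as 1 table for the series, its rows headed by gene or transcript names. The submitters' processing notes name Bowtie2 2.2.3, RSEM 1.2.20 and the build mm10, and the counting settings, strand included, are not given in the sources used here. Columns were assigned to samples by name, with 0 left unused. TPM is a share of a fixed total, so abundant transcripts move the values of the rest. Read numbers cannot be recovered from TPM, so no count test was run.

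From the deposited TPM, log2(TPM + 1) was taken, and rows averaging at least 1 TPM over the samples were compared with limma 3.58.1 in R 4.3.3 (lmFit, eBayes with a trend, two-sided, genotype as the only term). The Benjamini-Hochberg adjustment covered every tested row. Genes named are all members, Chd5, up to 3 tested rows per list with the largest difference among those that did not overlap, every row in the Six3 neighbourhood and the 5 rows nearest to Six3, unless the text says otherwise. Some genes of these lists are not reported here. The members and the 13 gene lists were chosen with earlier results of these data known. Positions, exons, GC content and length came from GENCODE M21 of GRCm38, which may not be the authors' annotation, with GC content and length found for 93.0% of tested rows. Promoter windows came from RefSeq on GRCm38.p6, where 8 of the 9 members matched, and motifs were searched on both strands. The alternatives were pseudocounts of 0.1 and 5, a minimum mean of 10 TPM or none, quantile normalization, median-of-ratios scaling, loess removal of GC and length trends (span 0.5), replicate number as a block, no variance trend, leaving out each sample, and summing Six3 and Six3os1. The scripts were tested on simulated data. Python 3.11.15, pandas 2.3.3, numpy 2.4.6 and matplotlib 3.10.9 were used for tables and figures.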

Additional observations from a re-analysis of the deposited data

How the results depend on the processing

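Six3 ranged from -5.73 to -2.93 and Six3os1 from -6.42 to -4.03 across the alternatives, and Lhx2, Emx2, Otx1 and Otx2 kept their sign in all that gave a value. Pax6 turned to 0.89 without Chd5-/- replicate 1 (-1.09 without replicate 2), and Nr2f1 to -0.19 with GC and length trends removed, with or without the replicate block, and the cause was not tested. The count of rows past the adjusted threshold, 7 as reported, was 4 with a pseudocount of 0.1, 0 without a minimum TPM (3089 rows higher and 384 lower at an unadjusted p-value under 0.05), 4 with GC and length trends removed (581 and 732) and 1 after quantile normalization (1103 and 1024), and it was 6 after median-of-ratios scaling (1509 and 1311). Leaving out a sample gave 0 to 1247 rows, and 0 to 2 of the 6 members not picked on their fall (Emx2 without either Chd5-/- sample, Otx2 without replicate 2). The replicate number as a block gave 0 rows, alone or with GC and length trends removed, and the crossed pairing, added after seeing the data, gave 5. Deviations of same-numbered samples correlated at -0.15, so the numbers were not taken to pair the samples. With a minimum of 10 TPM, no midbrain, hindbrain or spinal cord regulator was left and Otx1 was not tested. Depth is unknown, so no detection limit can be given for the low Six3 values in Chd5-/- NSCs.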

Other observations

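Antisense transcripts at other members were singled out after their own values had been seen, so they are described without a test. Emx2os, antisense to Emx2 with 264 shared exonic bases, was at 3.38 and 1.48 TPM in +/+ and 0.29 and 0.04 TPM in Chd5-/- NSCs. The log2 difference was -1.51, without overlap between genotypes. Emx2os was higher in +/+ replicate 1 than in replicate 2 and higher in Chd5-/- replicate 1 than in replicate 2, as was Emx2. Otx2os1, which overlaps Otx2 on the opposite strand, was at 0.22 and 0 TPM in +/+ and 1.36 and 0.33 TPM in Chd5-/- NSCs. Pax6os1, which overlaps Pax6 on the opposite strand, was at 0 and 0.08 TPM in +/+ and 0 and 0.6 TPM in Chd5-/- NSCs. Both were under the minimum for testing. As for Six3 and Six3os1, reads from bases shared by a gene and its antisense partner cannot be assigned without knowing the strand setting.

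Pax8, a paired-box factor of the midbrain-hindbrain region outside the rule for named genes, was at 3.53 TPM in +/+ replicate 1 and at 0.22 TPM in +/+ replicate 2, beside 0.08 and 0.12 TPM in Chd5-/- NSCs. Prom1, which encodes the NSC surface marker CD133, was at 0.99 and 4.15 TPM in +/+ and at 45.27 and 3.20 TPM in Chd5-/- NSCs, and Hes5, a Notch target, was at 8.52 and 3.13 TPM in +/+ and at 1.16 and 43.69 TPM in Chd5-/- NSCs. In each of these 3 genes a single culture stood high, a different one for each, and the genotypes overlapped for Prom1 and Hes5.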
